A study of Mus musculus with 12 samples.

Results

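Colonies that lacked both Bmi1 and the Ink4a/Arf locus were compared with wild-type colonies. The comparison was defined by genotype label: 4 arrays of double null colonies (replicates 1 to 4) and 4 arrays of wild-type colonies (replicates 1, 3, 4 and 5), which are 8 of the 12 arrays of the series. The other 4 arrays, of colonies that lacked Bmi1 alone, entered the fit for its estimate of spread and are not described further. All colonies grew in culture from dental epithelium of the labial cervical loop of mice of mixed genetic background, and each array held total RNA of a single colony, amplified with a whole transcriptome kit and labelled with Cy3. The genotypes are given as WT and Bmi1-;Ink4a/Arf-; no treatment, age or time in culture is given, and the alleles are not described further. How many animals gave the colonies is not stated, so p-values measure the spread between these colonies.

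The labial cervical loop lies at the growing end of the mouse incisor and holds the epithelial stem cells that renew enamel-forming ameloblasts throughout life. BMI1 is a RING finger subunit of Polycomb repressive complex 1 (PRC1), which marks histone H2A with ubiquitin, while Polycomb repressive complex 2 (PRC2) methylates histone H3 at lysine 27; among the classic targets of both is the Ink4a/Arf locus (Cdkn2a). That locus encodes p16Ink4a, which inhibits the cyclin D kinases and keeps RB proteins active, and p19Arf, which stabilises p53, so a mouse that lacks both Bmi1 and Ink4a/Arf separates the part of the Bmi1 phenotype that runs through this locus from the part that does not.

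The arrays of the genotypes differed in their range of signal, and this bears on every value below. Levels are given as log2 signal minus the 75th percentile of the array. Over non-control spots, the interquartile range of log2 signal was 2.49 to 2.62 on the wild-type arrays and 4.04 to 4.93 on the double null arrays, and the share of spots well above background was 90.7 to 96.9% against 74.8 to 87.6%. The median signal was 109 to 210 on wild-type arrays and 63.2 to 157 on double null arrays, with a local background of 18 to 23 on both. Rank correlations (Spearman) were 0.962 to 0.990 among wild-type arrays, 0.962 to 0.975 among double null arrays and 0.670 to 0.782 between the genotypes. The arrays lay on 5 slides, and only wild-type colony 3 and double null colony 3 shared a slide across the genotypes. Wild-type colonies 1 and 4 lay together on another slide, and double null colonies 1 and 4 on a further slide. Whether the difference in range arose in the cells, the amplification or the hybridisation was not tested.

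**Figure D1:**
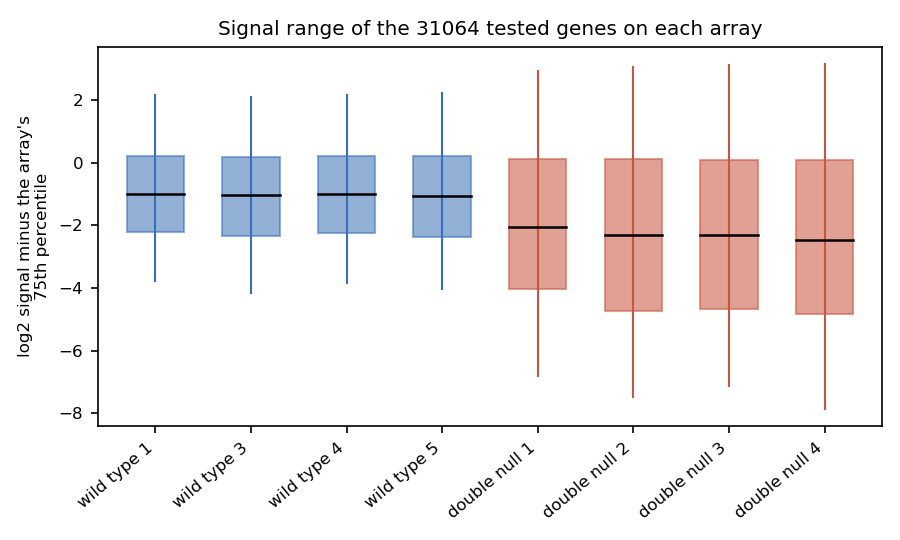
Levels of the tested genes on each of the 8 arrays, as log2 signal minus the 75th percentile of the array (vertical axis); boxes span the 25th to 75th percentile, the black line is the median and whiskers run from the 5th to the 95th percentile. The 4 wild-type arrays have their 5th percentile between -4.16 and -3.79, and the 4 double null arrays between -7.86 and -6.82.

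Of 31064 genes or unnamed transcripts tested with limma, 26551 differed at an adjusted p under 0.05 (85.5%), 7938 higher (25.6%) and 18613 lower (59.9%) in double null colonies. The median change of all of them was -1.41 on the log2 scale. Scaled by quantile normalisation instead, 22612 differed (72.8%), 10585 higher and 12027 lower, and the median change was -0.13. The share of calls that were higher was 29.9% on the 75th percentile scale and 46.8% after quantile normalisation. A gene is therefore said to have risen or fallen only where both fits called it in the same direction. By that rule 18537 genes changed (59.7% of those tested): 6963 rose (22.4%) and 11574 fell (37.3%), and these shares are the background for each gene list. The arrays of the genotypes did not overlap for 25306 genes (81.5%).

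The size of a change followed the brightness of the gene. Over 20 bins of equal size ordered by the mean level of the genotypes, the median change ran from -3.30 in the second dimmest bin to 1.68 in the brightest, where 55.1% of genes rose and 14.9% fell. In the dimmest bin 0.71% rose and 26% fell. Each gene is therefore also given as its change beside genes of the same brightness, which is its log2 change minus the median of its bin. Over all genes the middle 50% of these differences lay between -1.09 and 0.94, and 50% were above 0. For each gene list the share of same-brightness genes that rose or fell, weighted by the bins its members occupy, is given as a second background; no test was made on a list.

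**Figure D2:**
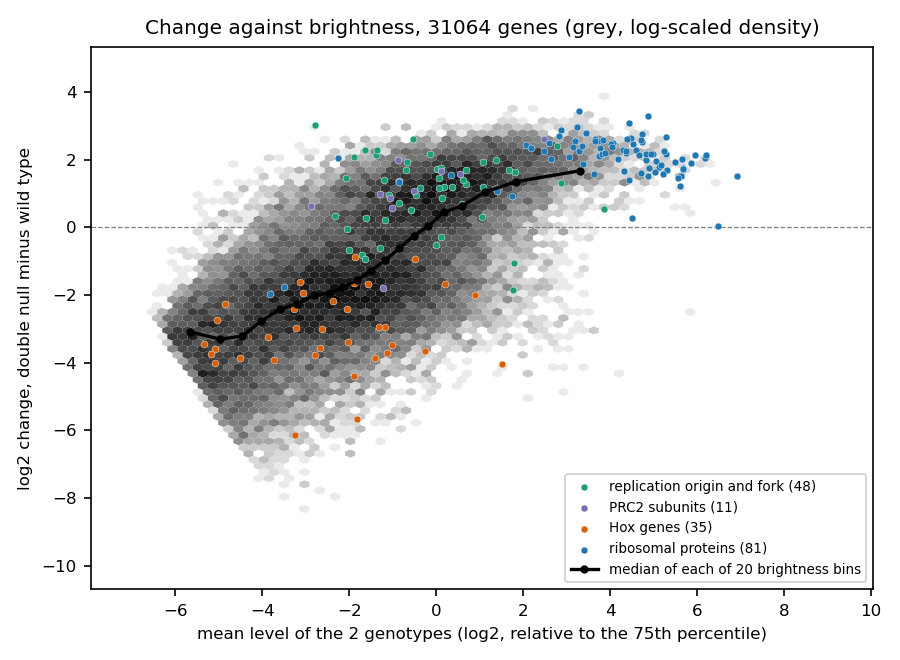
Log2 change, double null minus wild type (vertical axis), against the mean level of both genotypes (horizontal axis) for 31064 genes, shown as grey density; the black line joins the medians of 20 brightness bins. Replication genes and PRC2 subunits lie mostly above the line, Hox genes below it, and ribosomal proteins at the bright end, above the line by a median of 0.54.

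Bmi1 was lower in every double null colony, but its probes still gave signal there. The brighter of its 2 probes read -0.04, -0.89, 0.18 and -0.34 in wild-type colonies 1, 3, 4 and 5 and -2.44, -2.31, -2.60 and -2.79 in double null colonies 1 to 4, well above background on all 8 arrays. The genotypes did not overlap, and the gene fell 4.80-fold (log2 change -2.26 ± 0.23 SE, adjusted p = 1.8e-06), or by 0.98 beside genes of the same brightness. The dimmer probe fell by 3.95 (SE 0.35) and was well above background on 4 wild-type arrays and 1 double null array. Whether either probe lies within the deleted part of Bmi1 is not given. The single Cdkn2a probe was well above background on no array of either genotype, and its change turned from -1.79 to 0.75 with the scaling. It was tested because it was well above background on at least 3 arrays of colonies that lacked Bmi1 alone. This comparison gives no level for Ink4a/Arf in either genotype, and so does not by itself check that deletion.

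The other PRC1 subunits changed in both directions, and nearly all PRC2 subunits rose. Of 20 PRC1 genes tested, 8 rose and 3 fell (40% and 15.0%, against 34.8% and 36.6% of genes of the same brightness), with a median change of 0.28. Pcgf2, also called Mel18, the closest relative of Bmi1 in the complex, read -1.18, -1.09, -1.23 and -1.02 in wild-type colonies and 1.05, 1.36, 0.89 and 0.70 in double null colonies. All double null colonies were thus above all wild-type colonies, and Pcgf2 rose 4.38-fold (log2 2.13 ± 0.20, adjusted p = 8.1e-07; 2.09 beside genes of the same brightness). Pcgf6, a subunit of variant PRC1, rose 2.17-fold, Pcgf3 3.28-fold and the catalytic subunit Rnf2 1.57-fold. Cbx6, a chromodomain subunit, rose 2.98-fold. Bmi1 itself, the other catalytic RING protein Ring1 (1.80-fold) and the polyhomeotic gene Phc1 (1.44-fold) fell. The falls of Ring1 and Phc1 are small, and under median scaling both turned to rises (0.20 and 0.52). The call of Rnf2 was lost with the slide as a block (0.51).

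Of the 11 PRC2 genes, 10 rose and 1 fell, where 31.5% and 38.5% of genes of the same brightness did so. Their median change was 1.08, and 1.32 beside genes of the same brightness. The methyltransferase Ezh2 read -1.73, -1.67, -1.48 and -1.31 in wild-type colonies and -0.05, -0.15, -0.03 and -0.51 in double null colonies, a 2.57-fold rise (log2 1.36 ± 0.19, adjusted p = 2.3e-05). Its core partners Eed (3.17-fold) and Suz12 (2.12-fold) rose as well, without overlap between the genotypes. The histone-binding subunits Rbbp4 and Rbbp7, which also serve other chromatin complexes, rose 6.13-fold and 2.99-fold. The accessory subunits that steer PRC2 to chromatin rose too: Aebp2 4.01-fold, Mtf2 1.99-fold, Jarid2 1.82-fold and Phf1 1.54-fold. Ezh1, the other methyltransferase, rose 1.48-fold, a call that was lost without wild-type colony 1 (adjusted p = 0.056) or double null colony 4 (adjusted p = 0.073). Jarid2 (0.74), Phf1 (0.24) and Ezh1 (0.65) also lost their calls when the slide was a block. On the slide that wild-type and double null colony 3 shared, the list's median beside genes of the same brightness was 1.35. Phf19, a Polycomb-like accessory subunit, was the exception: it read -0.32, -0.07, -0.32 and -0.56 in wild-type colonies and -1.93, -2.82, -1.65 and -2.04 in double null colonies, a 3.47-fold fall.

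**Figure D3:**
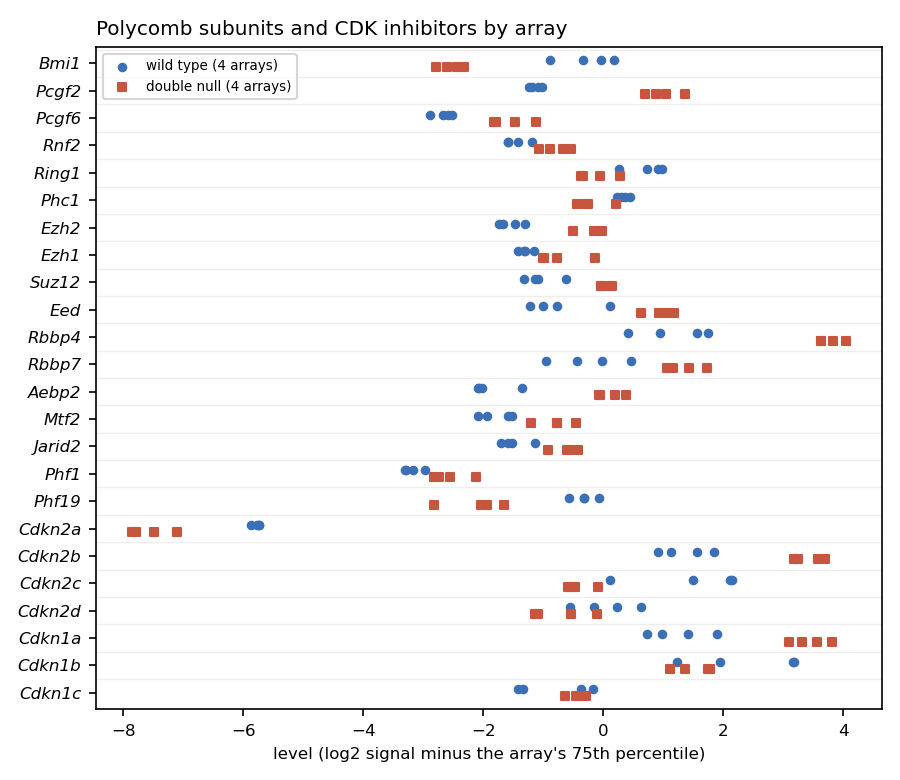
Levels (log2 signal minus the 75th percentile of the array, horizontal axis) of Polycomb subunits and CDK inhibitors, with each of the 4 wild-type arrays as a blue circle and each of the 4 double null arrays as a red square. The 2 sets of points are separate for Bmi1 (lower in double null) and for all 11 PRC2 genes, of which Phf19 alone is lower. Cdkn2a lies at the background on all arrays shown.

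The other CDK inhibitors, which block the kinases of the cell cycle, differed in direction from gene to gene. Cdkn2b (p15Ink4b), the neighbour of Cdkn2a, read 1.13, 1.85, 0.91 and 1.56 in wild-type colonies and 3.18, 3.69, 3.25 and 3.58 in double null colonies, a 4.18-fold rise. That is little more than genes as bright as Cdkn2b rose, by 0.39. Cdkn1a (p21), a p53 target, rose 4.56-fold and stood 0.51 above its brightness. Cdkn2c (p18Ink4c) read 2.15, 0.12, 2.12 and 1.49 against -0.48, -0.59, -0.08 and -0.53 and fell 3.71-fold. Cdkn1b, Cdkn1c and Cdkn2d were not called by both fits: their changes were -0.87 ± 0.41, 0.37 ± 0.33 and -0.76 ± 0.32, and their arrays overlapped.

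Genes of DNA replication were mostly higher in double null colonies. Of 48 tested, 32 rose and 3 fell (66.7% and 6.2%, against 35.7% and 34.6% at the same brightness), with a median change of 1.2 and of 0.98 beside genes of the same brightness, and 1.24 within the shared slide. Prim2, the large primase subunit, read -3.89, -5.38, -4.01 and -3.95 in wild-type colonies and -1.30, -1.23, -1.31 and -1.25 in double null colonies. It rose 8.19-fold (log2 3.03 ± 0.29, adjusted p = 1.0e-06), and was well above background on 4 double null and 3 wild-type arrays. The single-strand binding protein Rpa2 rose 4.93-fold, the polymerase alpha subunit Pola2 4.87-fold and the fork protection factor Tipin 4.24-fold. Chaf1b, which loads histones on new DNA, went the other way, from 2.58 to 2.86 in wild-type colonies to 0.42 to 1.13 in double null colonies, a 3.63-fold fall. Rfc5, of the clamp loader, and Mcm10, an initiation factor, fell 2.06-fold and 1.45-fold, though under median scaling Rfc5 did not differ (0.00) and Mcm10 turned higher (0.51). The call of Mcm10 was also lost without wild-type colony 1, 4 or 5 or double null colony 4 (adjusted p between 0.050 and 0.089), and with the slide as a block (-0.31).

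Nucleotide synthesis genes were mostly higher too: of 22 genes, 16 rose and 1 fell (72.7% and 4.5%, against 41.9% and 27.5%), with a median change of 1.51. Gmps and Impdh1, which make guanine nucleotides, rose 6.17-fold and 2.79-fold, and Rrm1, the large subunit of ribonucleotide reductase, 1.88-fold.

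Of 49 mitotic genes, 27 rose and 4 fell (55.1% and 8.2%, against 39.6% and 33.2%) and a median of 0.60 beside genes of the same brightness. Cdk1, the kinase that drives entry into mitosis, read -3.21, -2.05, -2.39 and -1.53 in wild-type colonies and 0.53, 0.27, 0.66 and 0.09 in double null colonies, a 6.43-fold rise. Only the brighter of its 2 probes rose. Dlgap5 rose 5.24-fold, the chromosomal passenger kinase Aurkb 4.17-fold and the checkpoint kinase Ttk 2.14-fold. Cenpe, a kinetochore motor, fell 1.86-fold by its brightest probe, while 2 of its 3 probes were higher. In homologous recombination and Fanconi repair, 6 of 31 genes rose and 0 fell (19.4% and 0%, against 24.8% and 41.3% at the same brightness). The share that rose was thus below that of genes of the same brightness, though 27 of the 31 stood above their brightness. Fancl rose 2.46-fold, Fanca 2.29-fold, Nbn 1.96-fold and Bard1, the partner of BRCA1, 1.91-fold; Brca1 itself was not called (0.47 ± 0.22). The call of Bard1 was lost without wild-type colony 3 or double null colony 1, 2 or 3 (adjusted p between 0.056 and 0.064), and with the slide as a block (0.71). By the quantile fit alone 20 of the 31 were higher and 0 lower, where that fit called 34.1% of all genes higher and 38.7% lower.

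Among the proteins that govern the passage from G1 to S phase, 12 of 21 rose and 4 fell (57.1% and 19%, against 29.9% and 35.8%). E2f4, which represses targets together with the pocket proteins, rose 4.08-fold, E2f5 1.92-fold, the phosphatase Cdc25a 3.1-fold and Cdk2 3.06-fold. E2f1, the activator that RB restrains, read -0.07, 0.27, -0.17 and 0.00 in wild-type colonies and -0.79, -0.79, -0.61 and -1.15 in double null colonies, a 1.79-fold fall that median scaling turned to 0.20. Rb1 fell 2.27-fold and cyclin E1 (Ccne1) 2.10-fold. E2f1 and Rb1 each have a second probe that was higher. Of 31 replication-dependent histone genes 21 rose and 5 fell (67.7% and 16.1%, against 41.6% and 25.8%), with a median of 1.19 beside genes of the same brightness. The H2A gene H2ac4 read -2.54, -2.37, -1.91 and -1.79 against -0.04, 0.57, 1.47 and 1.28. The probes of such near-identical genes can share transcripts, so single histone genes are uncertain.

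E2F proteins and the DREAM complex, which pocket proteins form part of, are known to bind short words in promoters of cell cycle genes. Promoters of genes that rose are shown to compare the 2 kinds of word. Windows were the 250 bases before the RefSeq start (GRCm38.p6). The E2F words searched were TTTCCCGC, TTTGGCGC, TTTCGCGC and TTTGCCGC, and the cell cycle homology region (CHR) word was TTTGAA, each on both strands; no E2F word contains the CHR word. An E2F word was in 10 of 49 windows of 40 replication genes (20.4%), in 2 of 44 windows of 41 mitosis genes (4.55%) and in 1.86% of all 32851 windows. A CHR word was in 12.2% of the replication windows, 40.9% of the mitosis windows and 16% of all windows. CCAAT, on either strand, was in 51.0%, 79.5% and 33.9%. Windows of genes that rose held an E2F word in 3.66%, those of genes that fell in 1.28% and those of uncalled genes in 2.45%. The CHR word went the other way, with shares of 10.3%, 16.3% and 12.6% in the same order. Below are replication genes that rose and hold an E2F word, and mitosis genes that rose and hold a CHR word. The 3 of each with the largest change beside genes of the same brightness are shown, and capitals mark the word. Genes of a single chromosome were left out of this choice, and the first window of a gene that held the word is printed.

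Pola1, chrX:93632156-93632405, - strand: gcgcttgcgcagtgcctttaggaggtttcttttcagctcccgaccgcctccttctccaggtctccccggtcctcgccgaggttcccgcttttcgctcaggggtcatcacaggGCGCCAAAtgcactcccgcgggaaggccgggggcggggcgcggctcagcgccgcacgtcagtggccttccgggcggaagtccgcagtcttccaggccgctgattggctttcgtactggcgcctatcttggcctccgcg
Dtl, chr1:191575545-191575794, - strand: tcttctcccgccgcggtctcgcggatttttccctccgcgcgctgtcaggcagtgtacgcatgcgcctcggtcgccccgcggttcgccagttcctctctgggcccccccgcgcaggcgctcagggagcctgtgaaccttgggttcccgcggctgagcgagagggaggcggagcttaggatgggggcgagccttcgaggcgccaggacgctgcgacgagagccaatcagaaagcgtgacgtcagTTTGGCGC
Rfc3, chr5:151651209-151651458, - strand: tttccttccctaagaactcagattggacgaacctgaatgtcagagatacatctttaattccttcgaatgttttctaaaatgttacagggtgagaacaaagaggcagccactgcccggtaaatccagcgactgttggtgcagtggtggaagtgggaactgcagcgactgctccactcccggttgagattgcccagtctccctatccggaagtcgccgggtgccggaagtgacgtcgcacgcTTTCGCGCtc
Cdk1, chr10:69352913-69353162, - strand: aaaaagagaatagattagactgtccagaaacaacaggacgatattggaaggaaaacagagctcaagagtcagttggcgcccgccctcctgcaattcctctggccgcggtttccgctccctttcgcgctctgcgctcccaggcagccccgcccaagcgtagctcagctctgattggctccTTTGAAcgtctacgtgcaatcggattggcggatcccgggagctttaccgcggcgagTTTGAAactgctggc
Ect2, chr3:27153879-27154128, - strand: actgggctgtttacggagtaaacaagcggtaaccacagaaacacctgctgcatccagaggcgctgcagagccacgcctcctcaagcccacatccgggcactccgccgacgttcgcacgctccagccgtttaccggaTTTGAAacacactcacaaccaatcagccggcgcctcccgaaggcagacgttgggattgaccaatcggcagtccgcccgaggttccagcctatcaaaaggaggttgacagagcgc
Ncapg, chr5:45669675-45669924, + strand: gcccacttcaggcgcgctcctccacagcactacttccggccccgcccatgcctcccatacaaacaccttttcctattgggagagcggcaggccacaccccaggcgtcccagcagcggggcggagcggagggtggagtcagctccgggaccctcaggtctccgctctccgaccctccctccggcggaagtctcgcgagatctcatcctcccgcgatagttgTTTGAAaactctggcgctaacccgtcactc

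Pola1, the catalytic subunit of polymerase alpha, rose by 1.48 (SE 0.32) with its E2F word starting 138 bases before the start. Dtl, which removes the licensing factor Cdt1, rose by 0.73 (SE 0.28), and Rfc3, of the clamp loader, by 1.77 (SE 0.24); their words begin 8 and 10 bases before the start. The call of Dtl was lost without wild-type colony 1 or 3 or double null colony 1 or 3 (adjusted p between 0.062 and 0.087). Cdk1 has 2 CHR words, 71 and 15 bases before the start, and also 1 E2F word, left in lower case, 131 bases before it; the other 5 windows hold no word of the other kind. Ect2, which drives cytokinesis, rose by 2.18 (SE 0.34) and Ncapg, of condensin, by 1.08 (SE 0.24). A match of letters is a description and not evidence of binding.

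The p53 targets changed in both directions. Of 30 genes 12 rose and 3 fell (40% and 10%), while 40.2% and 29.1% of genes of the same brightness did so, and the median beside genes of the same brightness was 0.28 and between -0.19 and 0.56 under the alternatives. The growth arrest gene Gadd45a rose 2.00-fold, and the nucleotide excision repair genes Ercc5 and Xpc rose 2.28-fold and 1.54-fold. Fas, the death receptor, read -1.0, -1.59, -1.12 and -1.64 in wild-type colonies and -3.52, -3.87, -4.09 and -4.28 in double null colonies, a 6.08-fold fall. Sesn2 and Bbc3 (Puma) fell 1.64-fold and 1.38-fold, both with overlapping arrays, and both turned higher under median scaling (0.33 and 0.58). The call of Bbc3 was lost without any of 6 colonies (adjusted p between 0.056 and 0.127), and with the slide as a block (-0.40), as were those of Xpc (0.54) and Sesn2 (-0.76). Of 22 secreted factors associated with senescence, 1 rose and 8 fell (4.5% and 36.4%, against 25.2% and 36.4%). The falls were thus at the background share, and 22 members passed the background test in wild-type and 20 in double null colonies. Ccl5, Ccl2 and Il1b, all inflammatory signals, fell 4.45-fold, 2.65-fold and 5.66-fold; Timp1 fell 2.92-fold by its brighter probe, while its other probe was higher.

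Most genes of protein synthesis, respiration and protein turnover rose. Of 81 ribosomal protein genes 72 rose and 0 fell (88.9%, against 52.7% of genes of the same brightness), with a median change of 2.16. Because they are among the brightest genes, their median shrank to 0.54 beside genes of the same brightness. Rpl4 read 1.14, 1.64, 1.43 and 2.08 against 4.83, 5.17, 5.08 and 4.93, a 10.8-fold rise. The dimmer Rpl21 rose 4.15-fold and stood 3.83 above its brightness, while Rpl14 rose 2.53-fold. Oxidative phosphorylation followed, with 67 of 74 genes higher and 1 lower (52.5% and 18.5% at the same brightness) and a median of 0.63 beside genes of the same brightness. The complex I subunits Ndufa8 and Ndufv2 rose 5.98-fold and 6.19-fold. Ndufa1 was the 1 that fell, 2.65-fold, and its 2 probes differed in direction.

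In the proteasome 35 of 38 genes rose and 2 fell (50.1% and 20.5% at the same brightness). Psmd9 and Psmd10, assembly chaperones of the regulatory particle, rose 8.41-fold and 3.12-fold. Both genes that fell encode catalytic subunits of specialised proteasomes. Psmb11, known from thymic epithelium, read 0.67, 0.47, 0.57 and 0.67 in wild-type colonies and -4.91, -4.92, -4.14 and -4.45 in double null colonies, a 36.8-fold fall, and Psmb9, of the immunoproteasome, fell 2.33-fold. Among cytoplasmic aminoacyl-tRNA synthetases 18 of 20 rose and 1 fell (47.2% and 24.9% at the same brightness), with a median of 1.06 beside genes of the same brightness. Tars rose 5.30-fold, Gars 5.14-fold and Yars 3.94-fold. Farsa fell 1.87-fold by its brightest probe, while 2 of its 3 probes were higher; its call was lost with the slide as a block (-0.48).

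Cholesterol synthesis rose in 19 of 21 genes and fell in 0 (51.3% and 20.2% at the same brightness), with a median of 0.68 beside genes of the same brightness. Pmvk, Fdps and Cyp51, of the early, middle and late pathway, rose 8.15-fold, 7.15-fold and 6.38-fold, and Ebp 2.04-fold. Of 27 Nrf2 and glutathione genes, 20 rose and 1 fell (74.1% and 3.7%, against 47.7% and 22.3%). Gclm, which limits glutathione synthesis, rose 3.37-fold, and the cystine transporter Slc7a11 rose 2.10-fold. Hmox1, which degrades haem, was the 1 that fell, from 2.33 to 2.75 down to 0.99 to 1.78. Chaperones rose in 15 of 23 genes, glycolysis in 10 of 16 and the unfolded protein response in 11 of 19, with 0 falls in each, where 52%, 47.9% and 46.4% of genes of the same brightness rose. Hspa14 rose 4.19-fold. These 3 lists stood only 0.30, 0.19 and 0.24 above genes of the same brightness.

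**Figure D4:**
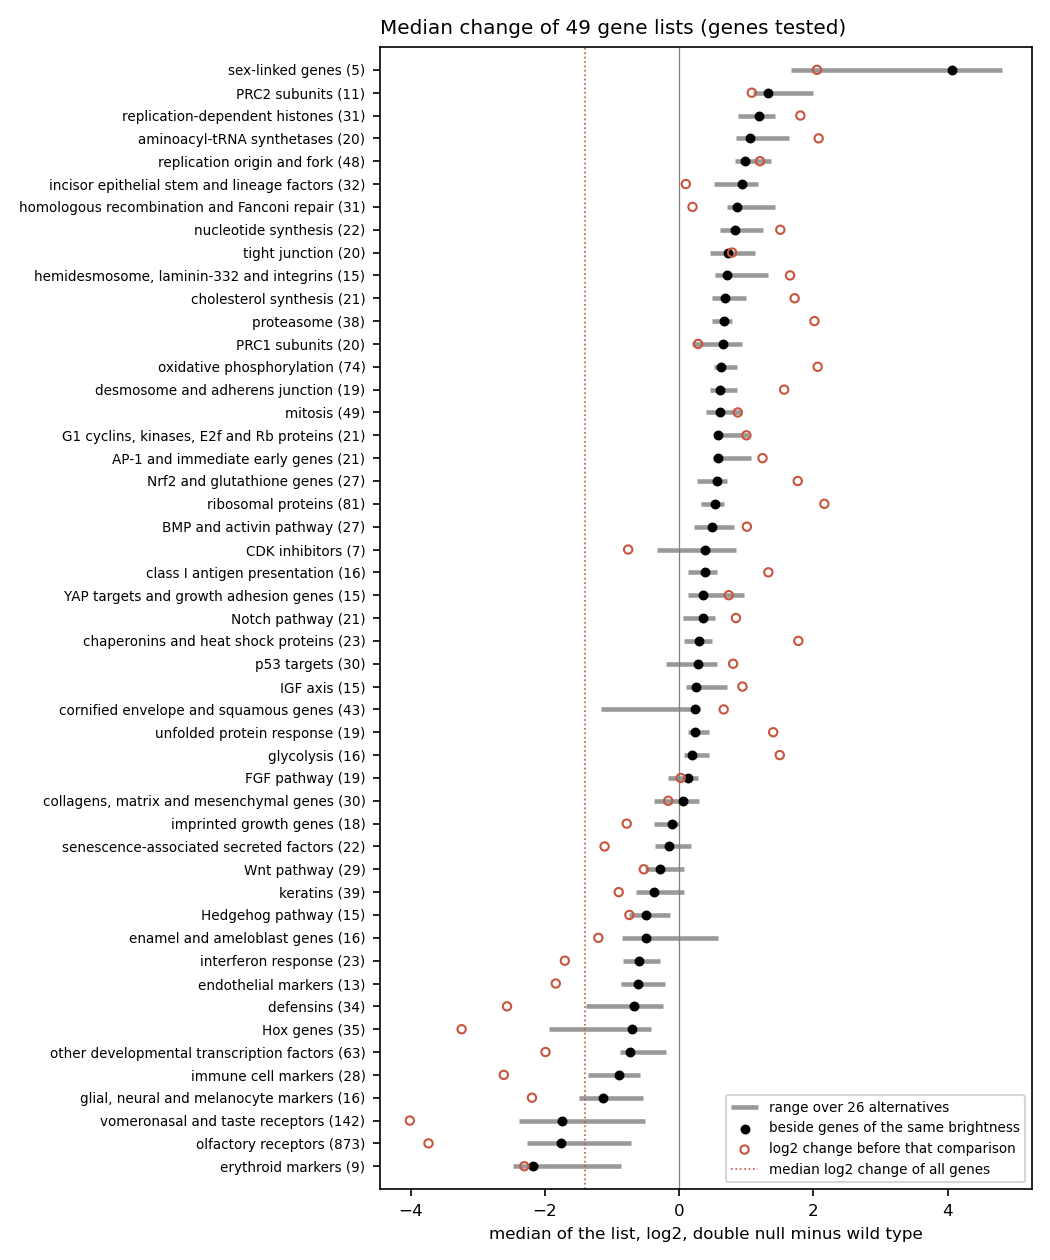
Median change of each of 49 gene lists, double null minus wild type on the log2 scale (horizontal axis): open circles are the change itself, black points the change beside genes of the same brightness, and grey bars the range of the black point over 26 alternatives. The ribosomal list moves from 2.16 to 0.54 when set beside genes of the same brightness and the Hox list from -3.24 to -0.71.

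Transcription factors of body patterning were mostly lower, while several incisor factors were higher. None of 35 Hox genes rose and 26 fell (74.3%, against 41.5% at the same brightness). By the quantile fit too 0 were higher and 26 lower, against 34.1% and 38.7% of all genes. All 35 passed the background test in wild-type colonies and 25 in double null colonies, so 10 passed in wild type and not in double null colonies. Colonies that lacked Bmi1 alone also counted in that test. Their median change was -3.24, and -0.71 beside genes of the same brightness (-0.93 within the shared slide). Hoxa3 read 3.86, 3.03, 4.03 and 3.18 in wild-type colonies and -0.52, -0.40, -0.42 and -0.68 in double null colonies, a 16.3-fold fall. Hoxd9 fell 12.5-fold, Hoxc10 51.2-fold and Hoxb7 70.6-fold, the last of these above background on 2 of 4 double null arrays. Hoxc10 had no usable spot in double null colony 1. Hoxc13, the hair and nail Hox gene, was not called by both fits, and its sign turned with the scaling (-2.25 to 0.58). Of 63 other developmental factors 6 rose and 38 fell (9.5% and 60.3%, against 19% and 40%); 62 passed the background test in wild-type and 51 in double null colonies. The forebrain factor Emx1 fell 30.3-fold, its relative Emx2 7.46-fold and the gonadal and neural factor Lhx9 22.1-fold. Foxc1 and the tooth factor Pax9 rose 4.96-fold and 1.88-fold.

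Of 32 factors known from incisor epithelial stem cells and their progeny, 12 rose and 8 fell (37.5% and 25%, against 26% and 38.8%), with a median of 0.94 beside genes of the same brightness. Sox2, which marks the stem cells of the labial loop, read -2.10, -1.79, -2.16 and -1.30 in wild-type colonies and -0.32, -0.72, -0.28 and -0.28 in double null colonies. Every double null colony was above every wild-type colony, and the rise was 2.71-fold (log2 1.44 ± 0.22, adjusted p = 5.1e-05; 2.40 beside genes of the same brightness). Isl1, an early dental epithelial factor, rose 2.81-fold, and Trp63, the master regulator of stratified epithelium, 6.19-fold. The EGF receptor inhibitors Lrig1 and Lrig3 rose 2.43-fold and 2.23-fold. Lrig1 differed among double null colonies, at -1.75, 0.27, -0.10 and -1.18, and its call was lost with the slide as a block (1.09). Lef1, a Wnt effector of tooth buds, and Lgr6, a stem cell receptor of skin, fell 12.0-fold and 3.89-fold, while Lgr5 was not called (-0.86 ± 0.41) and changed sign with the scaling (0.65 by quantile).

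The genes of enamel formation were lower in part. Of 16 tested, 4 rose and 8 fell (25% and 50%, against 24.9% and 34.4%), 16 passed the background test in wild-type and 12 in double null colonies, and the list's median beside genes of the same brightness, -0.49, turned to 0.58 when only genes above background on all 12 arrays were kept. The matrix gene Amelx read 2.23, 0.71, 2.24 and 1.44 in wild-type colonies and -0.98, -1.39, -0.47 and -1.34 in double null colonies, a 6.51-fold fall. The maturation protease Klk4 fell 8.05-fold and the ion exchanger Slc24a4 11.7-fold. Ambn, another matrix gene, was well above background on 4 wild-type arrays and 0 double null arrays and fell at least 6.44-fold. Enam was above background on 1 of 4 double null arrays. Tuft1 rose 5.05-fold, from 0.61 to 0.99 up to 2.39 to 4.09.

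Epithelial markers were bright in both genotypes. Of 13 general epithelial markers, 13 were well above background on every wild-type array and 13 on every double null array. Their median level lay at percentile 93.2 of tested genes in wild-type and 94.9 in double null colonies. Of these markers 9 rose and 0 fell, with a median of 0.68 beside genes of the same brightness. In brightness bins 19 and 20, the brightest, 52.7% and 55.1% of genes rose and 17.3% and 14.9% fell. Krt5 and Krt14, the basal keratins, rose 2.77-fold and 2.46-fold, yet stood 0.20 and 0.38 below genes of the same brightness, and cyclic loess normalisation turned both lower (-0.77 and -1.29); the call of Krt14 was also lost with the slide as a block (1.24). Of 15 genes of hemidesmosomes, laminin-332 and integrins, 10 rose and 0 fell (44.2% and 27.0% at the same brightness). Cd151, a tetraspanin of hemidesmosomes, rose 6.36-fold, Itgb5 3.87-fold, Itga5 2.68-fold and Itga6 2.47-fold. Of 19 genes of desmosomes and adherens junctions, 13 rose and 0 fell (46.1% and 24.6%). E-cadherin (Cdh1) read -1.47, -1.02, -1.32 and -0.53 against 0.63, 0.29, 0.72 and 0.38, a 3.01-fold rise. Pkp4 rose 6.42-fold, Nectin4 2.95-fold and Nectin1 2.61-fold. In tight junctions 9 of 20 rose and 2 fell (39.0% and 29.1%). Occludin (Ocln) rose 4.21-fold, the polarity gene Crb3 4.27-fold and Cldn12 1.92-fold, and Cldn3 fell 2.12-fold.

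Of 39 keratins 11 rose and 15 fell (28.2% and 38.5%, against 32.8% and 33.1%). The gut keratin Krt20 fell 34.7-fold, and the hair keratin Krt35, Krt88 and the palm keratin Krt9 fell 32.6-fold, 18.7-fold and 7.04-fold. Krt23 rose 2.55-fold with wide spread, at -0.29, -1.16, -2.05 and 1.14 in double null colonies 1 to 4, and the call was lost without double null colony 4 (0.78, adjusted p = 0.055), without wild-type colony 5 (1.31, adjusted p = 0.050) and with the slide as a block (0.98). Of 43 genes of cornification and squamous differentiation, 9 rose and 8 fell (20.9% and 18.6%, against 40.2% and 27.3%). The small proline-rich genes Sprr2b, Sprr2e and Sprr2g fell 5.42-fold, 5.65-fold and 5.82-fold, and Sprr4 13.6-fold. The skin kallikreins Klk14 and Klk8 rose 12.9-fold and 7.12-fold, Klk14 without a call with the slide as a block (2.40).

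Double null colony 4 stood apart from the other 3 in the cornification genes. It had the highest level of the double null colonies in 36 of the 41 list members measured on all 4 arrays (87.8%), and in 17.2% of all genes so measured. In 13 of the 41 it exceeded the next colony by more than 2 on the log2 scale, as in 180 of 30058 genes measured on all 4 arrays. The same gap was seen in 7 of 38 keratins and in 4 of 29 collagens, matrix and mesenchymal genes. Lce1c, of the late cornified envelope, read -7.68, -6.43, -6.89 and 3.82 in double null colonies 1 to 4, and Lce1b read -2.56, -3.47, -2.41 and 5.11. Rptn (repetin), at -3.54, -5.58, -5.45 and 2.91, and the desquamation protease Klk5, at -3.50, -5.13, -3.97 and 2.54, showed the same gap. Loricrin (Lor), the main envelope protein, read 0.58, 0.31, -1.70 and 5.72. In wild-type colonies these 5 genes lay between -4.96 and 1.13, and none was called by both fits. The list's median beside genes of the same brightness was -0.60, -0.32, -0.51 and 1.96 in double null colonies 1 to 4. The median of the comparison went from 0.24 to -0.38 without colony 4, when 7 members rose and 15 fell. Of all 31057 genes tested without that colony, 6770 rose and 11141 fell. Within the slide that the colonies numbered 3 shared, the list's median was -1.16.

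Collagens, matrix and mesenchymal genes were mixed: 7 of 30 rose and 9 fell (23.3% and 30%, against 33.9% and 33.0%). Their summed level was 5.89 to 6.5 in wild-type and 7.51 to 8.20 in double null colonies. Such a sum is set mostly by the brightest members, and the median change of all genes in the brightest bin was 1.68. The list's median beside genes of the same brightness was 0.05. Fibronectin (Fn1) read 0.98, 1.31, 2.31 and 2.79 against 5.57, 6.18, 5.82 and 5.56, a 15.3-fold rise. Col6a1 rose 6.90-fold and vimentin (Vim) 5.55-fold. Pdgfra and Col5a1 fell 5.26-fold and 3.57-fold, Col5a1 by its brighter probe only. Col1a2 was uncalled, at 0.51, 1.32, -0.84 and 4.13 in double null colonies, so colony 4 was the highest here too. In bulk RNA of a colony, fewer cells of a type and less RNA per cell cannot be told apart.

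**Figure D5:**
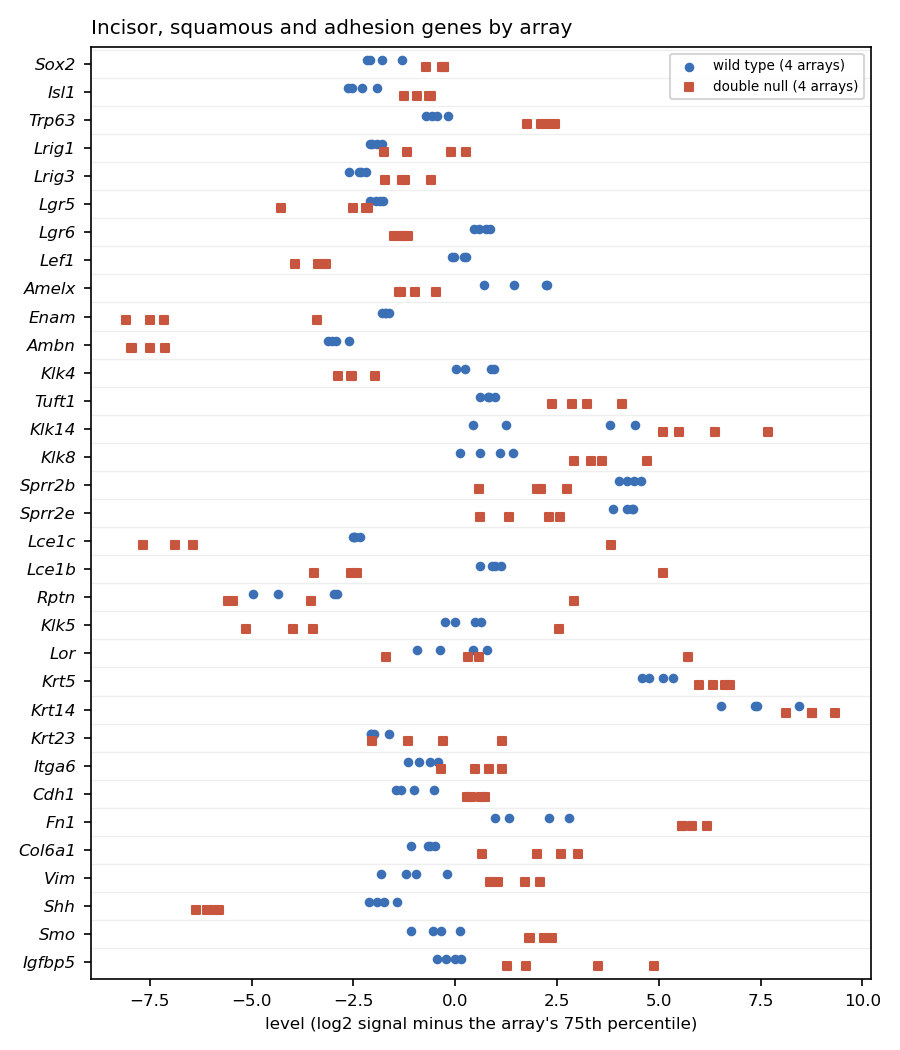
Levels (log2 signal minus the 75th percentile of the array, horizontal axis) of incisor, squamous, adhesion and signalling genes on each of 4 wild-type arrays (blue circles) and 4 double null arrays (red squares). Sox2, Isl1, Trp63, Cdh1 and Fn1 are separate and higher in double null colonies; for Lce1c, Lce1b, Rptn, Klk5 and Lor a single double null colony lies far to the right of the other 3.

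Signalling pathways of tooth renewal changed in both directions. In the Hedgehog pathway 3 of 15 genes rose and 8 fell (20% and 53.3%, against 29.2% and 36.9%). The ligand Shh, which differentiating progeny send back to the loop, read -1.74, -1.44, -1.93 and -2.12 in wild-type colonies and was well above background on no double null array, a fall of at least 13.9-fold. The signal transducer Smo and the co-receptor Gas1 rose 5.71-fold and 3.07-fold, and the effector Gli2 fell 2.86-fold. In the FGF pathway 7 of 19 rose and 7 fell (36.8% each, against 29.3% and 36.9% at the same brightness), so the falls were at the background share. The ligand Fgf8 fell 4.41-fold, and Fgf10, normally made by mesenchyme, was above background on 4 wild-type and 1 double null arrays. The feedback inhibitors Spry1 and Spry2 rose 5.17-fold and 4.20-fold, Spry2 by the brighter of 2 probes only.

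Of 29 Wnt genes 10 rose and 13 fell (34.5% and 44.8%, against 30.2% and 34.3%). The co-receptor Lrp5 fell 4.48-fold, the ligand Wnt6 9.33-fold and the receptor Fzd10 5.43-fold, while the repressor Tcf7l1 rose 2.22-fold. Of 27 BMP and activin genes 13 rose and 7 fell (48.1% and 25.9%, against 33.0% and 34.5%). The inhibitors Smad7 and Bambi rose 2.99-fold and 4.53-fold and the receptor Acvr2a 2.01-fold; the second Bambi probe was lower. The ligand Bmp5 fell 36.4-fold and was above background on 2 double null arrays. Of 21 Notch genes 9 rose and 6 fell (42.9% and 28.6%, against 31.6% and 33.6%). The coactivator Maml1 rose 1.80-fold, and the targets Hes5 and Heyl fell 8.83-fold and 8.61-fold.

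Among 15 genes of the IGF axis 5 rose and 2 fell (33.3% and 13.3%, against 38.6% and 30.1% at the same brightness). Igfbp5 rose 7.90-fold with double null values of 1.28, 3.51, 1.73 and 4.88, a call lost with the slide as a block (2.45), and Igf2bp3, a fetal RNA-binding protein, rose 5.50-fold. Of 18 imprinted growth genes 3 rose and 7 fell (16.7% and 38.9%, against 32.5% and 34.3%), with the falls near the background share. Mest read -2.87, -2.19, -0.14 and -0.62 against 2.65, 3.18, 2.46 and 2.84, while Ndn, Nnat and Zim1 fell 5.80-fold, 7.30-fold and 22.8-fold. Of 21 AP-1 and immediate early genes 14 rose and 4 fell (66.7% and 19%, against 38.8% and 30.7%). Ier5 rose 3.43-fold. Junb, among the brightest genes of wild-type colonies, fell from 7.0 to 7.97 down to 4.85 to 5.77 by its brighter probe, while its second probe was higher; Klf2 fell 1.55-fold but turned to 0.41 under median scaling. Of 15 YAP targets and growth adhesion genes 8 rose and 1 fell (38.9% and 31.7% at the same brightness). Tead1, the DNA-binding partner of YAP, rose 3.96-fold and the receptor kinase Axl 1.93-fold, a call that was lost with the slide as a block (0.59).

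Markers of cell types that epithelial colonies should not hold were lower in double null colonies. Of 28 immune cell markers 0 rose and 24 fell (85.7%, against 42.8% at the same brightness). Their summed level was 4.52 to 4.88 in wild-type and 1.79 to 2.30 in double null colonies, and 28 and 24 of the 28 were well above background. Tyrobp, a myeloid adaptor, read 1.12, 1.73, 1.13 and 1.04 against -1.59, -4.72, -3.47 and -3.56. The macrophage gene Adgre1 fell 44.2-fold and the leukocyte integrin Itgal 6.66-fold. Erythroid genes fell in 7 of 9 (77.8%, against 41% at the same brightness), with Hbb-bt 4.95-fold, Hba-a1 5.51-fold and Klf1 26.5-fold lower. Neural, glial and melanocyte markers fell in 10 of 16 and rose in 2 (62.5% and 12.5%, against 34.2% and 25.5%), and 16 passed the background test in wild-type and 12 in double null colonies: Syp fell 13.8-fold and Nefl 56.1-fold. Endothelial markers fell in 9 of 13 and rose in 1 (69.2% and 7.7%, against 42.8% and 17.6%).

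The sensory receptor families, with no known role in these cells, were lower too. Of 873 olfactory receptors 754 fell (86.4%) and 0 rose, and of 142 vomeronasal and taste receptors 120 fell (84.5%) and 0 rose, where 41.9% and 42% of genes of the same brightness fell. The medians of these families beside genes of the same brightness were -1.77 and -1.75, against -0.71 for Hox genes and -0.89 for immune markers. All 873 olfactory receptors passed the background test on at least 3 wild-type arrays, and 473 did on double null arrays; of the 142 other receptors, 142 and 64 did. Members that passed in wild type and not in double null colonies had to be lower, so these counts are descriptions. Their median level lay at percentile 52.3 of tested genes in wild-type colonies and 22.1 in double null colonies. The median Hox gene lay at percentile 52.4 and 31.0, and the median immune marker at 59.2 and 40.3. How far a fall in any tissue-restricted gene reflects the narrow signal range of the wild-type arrays was not tested.

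Interferon response genes fell in 14 of 23 and rose in 2 (8.7% and 60.9%, against 25% and 39.1%); 23 passed the background test in wild-type and 19 in double null colonies. Isg15 fell 5.25-fold, Ifit3 21.3-fold and Rsad2 2.71-fold. Class I antigen presentation differed, with 10 of 16 higher and 2 lower (62.5% and 12.5%, against 37.9% and 30%). Erap1, which trims peptides, rose 3.51-fold. H2-Q1, a nonclassical class I gene, was above background on 4 wild-type arrays and 0 double null arrays and fell at least 159-fold; such genes have close copies, so its identity is uncertain. Defensins fell in 19 of 34 and rose in 0 (55.9%, against 40.9%); 34 passed the background test in wild-type and 28 in double null colonies.

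Among the largest single changes beside genes of the same brightness were also genes of no list above. The 12 largest rises, Prim2 and Crb3 among them, stood 4.80 to 6.25 above their brightness, and 3 of the 12 passed the background test on every wild-type array. Irak1bp1, an inflammatory signalling regulator, read -4.11, -3.70, -4.17 and -4.27 against -0.59, -0.56, -0.53 and -0.06, a 12.4-fold rise. Acbd6 (9.49-fold), Fam167a (8.51-fold), the kainate receptor Grik1 (8.90-fold), the kinase Ripk2 (6.39-fold) and the ciliary gene Tmem67 (4.32-fold) were others. Smg8, Lipt2 and Tcf19 were above background on no wild-type array and rose at least 1.78-fold, 2.92-fold and 1.18-fold. The 12 largest falls, Emx1 and H2-Q1 among them, stood 5.82 to 10 below their brightness. The testis genes Speer4d and Speer4a fell 672-fold and 356-fold, the deiodinase Dio1 81.1-fold, and the immune genes Cd84 and Naip6 100-fold and 75.2-fold. Speer4d read between 4.88 and 5.37 in wild-type colonies. Btbd35f1 fell 194-fold, the hair gene Krtap21-1 35.3-fold, the gut peptide Pyy 28.7-fold and the elongation factor partner Eaf2 20.9-fold. Members of the Speer and Btbd35f families are near-identical, so their single names are uncertain.

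The Y-linked genes show that the colonies differed in sex. Ddx3y read -2.18, -0.94, -6.97 and -7.29 in wild-type colonies 1, 3, 4 and 5 and -0.05, 0.04, 0.11 and 0.40 in double null colonies. Uty, Kdm5d and Eif2s3y were likewise lowest in wild-type colonies 4 and 5, and all 4 genes rose, though none was called with the slide as a block (0.58 to 2.85). Xist, the X inactivation transcript, was highest in wild-type colonies 4 and 5, at -1.27 and -0.47, and lay between -8.11 and -3.78 in double null colonies. The double null colonies thus all carried Y-linked signal, and only part of the wild-type colonies did. The part of sex in the other differences was not tested. Leaving out each colony in turn cannot test it, because wild-type colony 4 or 5 always stayed in the comparison.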

How the data were processed

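Whole mouse genome arrays (1 colour, Cy3) were read with Feature Extraction 10.7.3.1 (protocol GE1_107_Sep09), per the file headers, and the deposited scanner files give a processed intensity (background-subtracted signal) per spot. The authors' deposited value table holds log2 values whose array medians lie between 7.21 and 7.24; their rank correlation with the log2 intensity was 0.970 to 0.999, and how they were normalised was not given in the sources used here. From the intensities, log2 values minus the 75th percentile of each array were computed over 43379 non-control spots, outlier spots were set to missing, spots of a probe were averaged and the brightest probe stood for a gene; no spot was saturated. Of 41174 probes, 24844 were named through RefSeq accessions (GRCm38.p6) and 16330 kept the file's name. Genes well above background on at least 3 arrays of a genotype were fitted with limma 3.58.1 in R 4.3.3 over all 12 arrays, a mean per genotype, with Benjamini-Hochberg adjustment at 0.05. The same fit on quantile-normalised log2 values gave the other set of calls. The script was tested on simulated data. Where a group was nowhere well above background by any probe of a gene, a bound is given in place of a fold. It is the bright group's mean over the dim group's mean, with each dim array set to at least its lowest signal well above background. The value of a list's summed level is the log2 of the sum over its members.

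Named were Bmi1 and Cdkn2a, the 12 largest rises and falls beside genes of the same brightness without overlap between genotypes (unnamed transcripts, Rik, Gm and receptor genes left out), up to 4 members per list by the same measure, all members of lists of up to 12, and members called the other way or not called. Some genes that this rule gives are not reported here. The genes whose promoters are shown, the cornification genes singled out for double null colony 4 and a few further members of lists (such as Trp63, Krt5, Krt14 and Brca1) were chosen after their values were seen. The lists and members were chosen with earlier results of these data known. The background-corrected alternative used the median spot signal, since the files used here hold no mean signal. For Ring1, Phc1, Cbx6, Rbbp4, Cdk1, Cenpe, E2f1, Rb1, Cdkn1b, Ndufa1, Farsa, Nectin4, Col5a1, Spry2, Bambi, Junb and Timp1, the probes of the gene differed in direction. Array files give no count of molecules, so the number of arrays limits precision.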

Additional observations from a re-analysis of the deposited data

Results flagged for a closer look

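In groups of 4 arrays, a sample was singled out where its gap to the nearest other, as a share of the group's range, exceeded Dixon's critical value for 4 samples, which chance alone gives in about 1 of 20 groups; 21 of 440 groups were singled out. In double null colony 4 the high values were Lce1c (3.82, next -6.43), Lce1b (5.11, next -2.41) and Irak1bp1 (-0.06, next -0.53), and the low value Bard1 (-3.82, next -2.62). Double null colony 2 was low for Sox2 (-0.72), Gli2 (-2.64) and Tcf7l1 (-1.70) and high for Klf2 (3.26). Double null colony 1 was high for Dlgap5 (0.65) and Xpc (-1.17), and its interquartile range of log2 signal (4.04, next 4.81) was the low one of its genotype. Double null colony 3 was low for Axl (-1.98).

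Among wild-type colonies, colony 5 was high for Aebp2 (-1.36), Cdc25a (-3.59) and Cyp51 (1.45) and in median signal (210.0, next 125.0). Colony 3 was low for Prim2 (-5.38) and high for Ocln (-2.35), Bmp5 (-0.41) and Tyrobp (1.73), and colony 1 was high for Krt23 (-1.63). Apart from Lce1c and Lce1b, each of these genes was called by both fits.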

How the results depend on the processing

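The number of genes called, 26551, lay between 18447 and 27867 under the other settings except when only genes above background on all 12 arrays were tested, which left 21344 genes and 17601 calls; without each colony in turn it was 24692 to 26522. The number called in the same direction by both fits, 18537, was 13837 with that filter and 15780 (slide as a block) to 21277 (authors' table) under the others, quantile normalisation apart, and 17318 to 18435 without a colony. By the authors' deposited table, fitted here, 46.8% of calls were higher, against 29.9%. The numbers of the titles did not pair the samples: deviations of same-numbered colonies correlated at 0.13, 0.06 and -0.14. With the replicate block 25883 genes were called, 18202 by both fits, and 199 of 203 named genes kept their call.

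All 203 named genes called by both fits kept direction by normexp, the authors' table and the slide block; 183 kept the call with the slide block and 181 with median scaling. The 20 lost with the slide block were Rnf2, Phf1, Jarid2, Ezh1, Mcm10, Bard1, Xpc, Sesn2, Bbc3, Farsa, Lrig1, Krt23, Krt14, Klk14, Igfbp5, Axl, Ddx3y, Uty, Kdm5d and Eif2s3y. Under median scaling Ring1 (0.20), Phc1 (0.52), Mcm10 (0.51), Cenpe (0.15), E2f1 (0.20), Sesn2 (0.33), Bbc3 (0.58), Farsa (0.14) and Klf2 (0.41) turned higher, as did the uncalled Cdkn1b (0.17), Cdkn2d (0.28) and Lgr5 (0.18), and Rfc5 was at 0.00. With the median over probes Cenpe (0.82), Rb1 (0.10), Ndufa1 (0.77), Farsa (1.5), Junb (0.46), Timp1 (0.29) and Cdkn1b (0.80) turned higher and Bambi lower (-0.45), since their probes differed. Cyclic loess turned Krt5 (-0.77), Krt14 (-1.29), Cdkn1c (-0.061) and Lor (-0.10) lower and Cdkn2a (0.98), Hoxc13 (0.49) and Lgr5 (1.09) higher. The last 3 were also higher by quantile normalisation (0.75, 0.58 and 0.65) and by the authors' table (0.13, 0.18 and 0.49), and Lce1c by quantile (0.15), normexp (0.77) and the authors' table (0.98). Cdkn1c was lower with the slide block (-0.33) and Krt23 within the shared slide (-0.046). Leaving out each colony in turn, Rptn ran from -1.06 to 1.77 and Lor from -0.25 to 2.23, both lowest without double null colony 4. The cause of these turns was not tested, except for the median over probes.

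Of 49 list medians beside genes of the same brightness, 40 kept their sign under all 26 alternatives. The 9 that did not were CDK inhibitors, p53 targets, secreted senescence factors, FGF, Wnt, mesenchymal and cornification genes, enamel genes (0.58 with genes above background on all 12 arrays) and keratins (0.077 by the authors' table). Dim genes are limited by signal over background: 473 of 873 olfactory receptors were above it in double null colonies.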
